A study of Mus musculus with 4 samples.

Results

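Chemokine ligands that T cells can make were followed in cultured Th2 cells that had or had not received SH-2251, a small thioamide compound studied for its effect on IL-5. They are Ccl1, Ccl3, Ccl4, Ccl5, Ccl9, Ccl17, Ccl22, Xcl1 and Cxcl10, and were chosen as chemokine genes known from T cells and found on the arrays through the RefSeq accession of each probe, which gave 9 of the 18539 genes named on the arrays, with 1 probe for each. The starting material was CD4 T cells from the spleens of female C57BL/6J mice, enriched on a magnetic sorter. Every culture received plate-bound antibody to TCR-β (3 µg/ml), antibody to CD28 (1 µg/ml), 10 ng/ml IL-4 and 2.5 ng/ml IL-2 over 2 days, and was then moved to a new plate and kept for 3 more days with the same cytokines. SH-2251 was present in both steps in the treated culture and absent from the control. The labels give its dose as 1 µM in the first step and 1 mM in the second, whereas the study's methods give a dose in the nanomolar range, start from naive cells and add an antibody to IFN-γ, so the dose on the arrays is not settled. Control and SH-2251-treated cells were then either left resting or restimulated over 4 h by the same antibody to TCR-β, which gives 4 conditions with 1 array each. The number of animals behind each culture is not given in the sources used here. With 1 array for each condition no test is possible, no p-value is given, and the spread between cultures is unknown.

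Chemokines are small secreted proteins that direct the movement of leukocytes, and they act through G protein-coupled receptors on the responding cell. The families are named for the spacing of the first conserved cysteines (CC, CXC and, with a single cysteine of that pair, C), and 1 receptor often binds several ligands. Activated T cells release inflammatory ligands such as Ccl3, Ccl4 and Ccl5, through which other T cells, macrophages and dendritic cells are drawn in, whereas ligands of Ccr4 and Ccr8 are associated with recruitment of Th2 cells. Cxcl10 is a ligand of Cxcr3, a receptor typical of Th1 cells, and is a classic interferon-induced gene.

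Levels are given as the log2 of the background-corrected intensity minus the 75th percentile of its array, so that 0 is the 75th percentile and 1 unit is a 2-fold difference. A probe has a measured level only where the scanner software marked it well above background, which held for 56.0% to 56.7% of the probes of an array. Where a probe was well above background on only 1 array of a pair, the difference is a bound against the lowest signal well above background on the other array (log2 levels of -4.74 to -4.65), or against the probe's own signal if that was higher. The technical SD beside a difference is the software's error estimate and does not cover the culture, the RNA or the labelling. Its median over genes was 0.204. Levels of different genes come from different probes and are not compared with each other. No spot was saturated. Markers of the label were present, as 10 of 10 T cell markers and 8 of 8 Th2 markers were well above background on every array. Such counts do not set the label apart, since 6 of 6 Th1 markers and 7 of 8 B cell markers were so too. Il5, SH-2251 minus control, differed by -3.86 in the resting pair of arrays and by -3.01 in the restimulated pair.

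Restimulation was accompanied by much higher signals of Ccl3, Ccl4 and Ccl1, and SH-2251-treated cells had lower signals of most of the compared ligands in either state. Some resting differences were bounds that could not have come out higher with SH-2251. Ccl5 was the furthest apart among SH-2251 differences measured on both arrays. Of the 9 ligands, 6 were well above background in resting control cells, 3 in resting SH-2251-treated cells and 7 on each restimulated array. Ccl3, Ccl4 and Ccl5 were measured on all 4 arrays, Ccl9, Ccl17 and Cxcl10 on 3 arrays and Ccl1 on 2 arrays. Ccl22 and Xcl1 were not well above background in any condition.

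**Figure D1:**
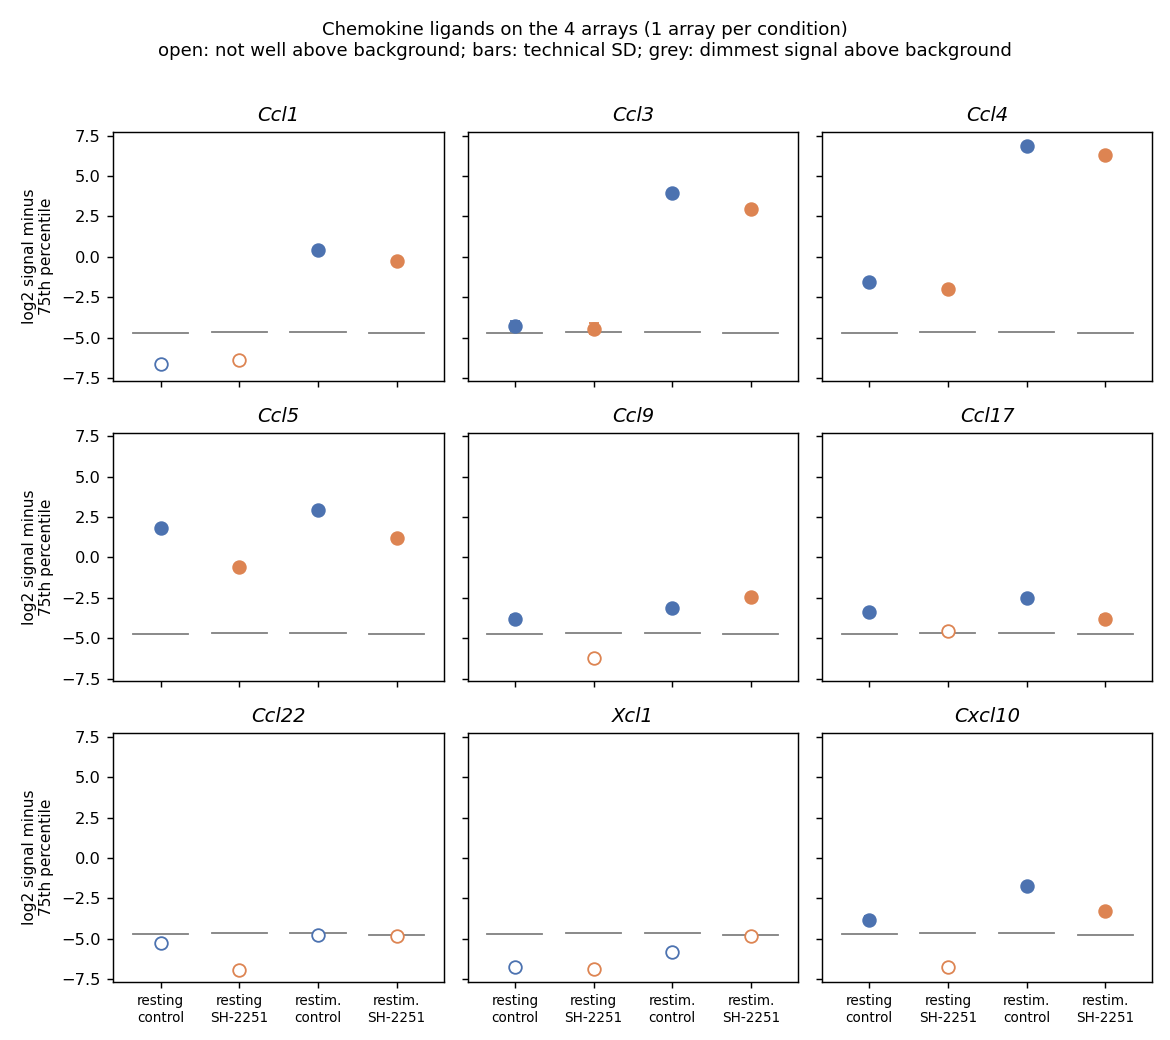
Log2 signal of the 9 chemokine ligands, relative to the 75th percentile of each array, in the 4 conditions (1 array each). Error bars are the technical SD from the scanner software, and open symbols mark values not well above background. Ccl3, Ccl4 and Ccl1 lie far higher on the restimulated arrays, Ccl5 lies lower with SH-2251 in either state, and Ccl22 and Xcl1 are open throughout.

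Ccl3 and Ccl4, also known as MIP-1α and MIP-1β, are inflammatory ligands that macrophages, NK cells and activated T cells release, and Ccl3 binds Ccr1. The log2 level of Ccl4 was -1.58 in resting control cells, -1.997 in resting SH-2251-treated cells, 6.88 in restimulated control cells and 6.31 in restimulated SH-2251-treated cells. The restimulated arrays were thus far above the resting ones, and SH-2251 was below control in either state, although the resting difference turned to 0.18 under a model-based background correction (normexp) fitted to all spots. Restimulation went with a difference of 8.46 (technical SD 0.208), or 351-fold, in control cells, which ranked 1 among the increases of the 11855 genes measured on both control arrays. In SH-2251-treated cells it was 8.31 (technical SD 0.210), or 317-fold, and ranked 2 of 11767 genes. Set against control, SH-2251 gave a Ccl4 difference of -0.42 (technical SD 0.214) in resting and -0.57 (technical SD 0.204) in restimulated cells, where 67.5% of the control signal was left.

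Ccl3 had log2 levels of -4.30 in resting control cells, -4.43 in resting SH-2251-treated cells, 3.97 in restimulated control cells and 2.93 in restimulated SH-2251-treated cells. Both resting values lay close to the lowest signal well above background, so the size of the restimulation difference depends on how that background was set. The difference was 8.27 (technical SD 0.332), or 308-fold, in control cells, and 7.36 (technical SD 0.353), or 164-fold, in SH-2251-treated cells, which ranked 2 and 5 among increases. Under normexp the control value was 6.42, and that of SH-2251-treated cells was 4.40 when fitted to all spots and 5.50 when fitted to spots of even background. With SH-2251 the restimulated Ccl3 signal was 2.06-fold lower (-1.04, technical SD 0.204), which left 48.5% of the control signal. Quantile normalization brought this difference to -0.99, just short of 2-fold. In resting cells the difference of -0.14 was smaller than its technical SD of 0.440, and it was 1.01 under normexp on all spots.

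Ccl5 (RANTES), a ligand of Ccr1 and Ccr3, is kept by effector and memory T cells and cytotoxic lymphocytes and is known for late expression after activation. Its log2 level was 1.79 in resting control cells, -0.57 in resting SH-2251-treated cells, 2.95 in restimulated control cells and 1.23 in restimulated SH-2251-treated cells. Even after restimulation the SH-2251-treated cells were below the resting control. The SH-2251 difference in resting cells was -2.37 (technical SD 0.205), which left 19.4% of the control signal and ranked 29 among the decreases of 11874 genes. In restimulated cells it was -1.72 (technical SD 0.204), which left 30.3% and ranked 74 of 11812 genes. Because RNA was taken from whole cultures, fewer cells that make Ccl5 and less Ccl5 RNA in each cell cannot be told apart, and this holds for every ligand. Restimulation went with a Ccl5 signal 2.23-fold higher in the control culture and 3.49-fold higher in the treated one.

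Gzma, a granule protease of cytotoxic lymphocytes, was lower with SH-2251 beside Ccl5, at -1.78 when resting and -1.72 when restimulated. Other compared markers of these cells went either way. Of 9 markers of CD8 T and NK cells on the arrays, 4 were well above background in resting control, 5 in resting SH-2251-treated, 4 in restimulated control and 6 in restimulated SH-2251-treated cells, and Ncr1, Klrb1c and Klrk1 were not well above background in any condition. Their summed signal, in multiples of the 75th percentile, was 65.3, 19.6, 96.0 and 29.9 in that order, most of it from Gzma. With SH-2251, 2 markers were lower and 3 higher in resting cells (median 0.06), and 2 were lower and 4 higher in restimulated cells (median 0.31). Among the higher, Eomes in either state (0.56 and 0.38) and Klrc1 in restimulated cells (0.24) were bounds. They were well above background with SH-2251 only and could not lie below 0, so these counts and medians were in part set by the filter. Klrd1 in resting cells (0.06) was within its technical SD of 0.221. Cd8a differed by 1.45 and 0.97, and Prf1, the pore-forming protein, by -0.86 and -0.29. The part of these cells in the Ccl5 difference was not tested. Among 6 Th1 markers, all well above background on every array, Ifng and Cxcr3 were at least 2-fold lower with SH-2251 in restimulated cells, and the part of Th1-like cells was not tested either.

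Ccl1 is the ligand of Ccr8, a receptor typical of Th2 and regulatory T cells, and Ccl17 and Ccl22 are the ligands of Ccr4. Ccl1 was not well above background in resting cells of either culture, with log2 values of -6.62 in control and -6.38 with SH-2251. After restimulation its log2 level was 0.43 without SH-2251 and -0.27 with it. The signal was therefore at least 35.5-fold higher with restimulation in control cells and at least 20.8-fold higher in SH-2251-treated cells. On the log2 scale these bounds are 5.15 and 4.38, and under normexp they were 3.06 in control cells and 1.44 (all spots) or 2.72 (spots of even background) in SH-2251-treated cells. Between the restimulated cultures Ccl1 differed by -0.70 (technical SD 0.205), which is 61.7% of the control signal.

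Ccl17 (TARC), which dendritic cells also make, was dim throughout. Its log2 level was -3.39 in resting control, -2.48 in restimulated control and -3.79 in restimulated SH-2251-treated cells, and in resting SH-2251-treated cells the value of -4.56 was not well above background. In each state the control was the higher, but for resting cells that direction was fixed, as only the control was well above background. With SH-2251 the signal was at least 2.24-fold lower in resting and 2.49-fold lower (-1.31, technical SD 0.272) in restimulated cells. Restimulation went with a Ccl17 signal 1.88-fold higher in control and at least 1.70-fold higher in SH-2251-treated cells. Ccl22 (MDC) had values of -5.28, -6.95, -4.73 and -4.82, in the order resting control, resting SH-2251, restimulated control and restimulated SH-2251, none of them well above background, so no fold is given. Of 13 markers of macrophages, monocytes and dendritic cells, 6 were well above background on each array. The summed signal of the list was 2.71 to 3.59 times the 75th percentile, most of it from Adgre1, at log2 levels of 1.20 to 1.51. Itgax, Itgam, Lyz2, Mrc1, Cx3cr1, Siglech and Cd209a were not well above background in any condition. Of those measured, Fcgr3 was lower with SH-2251 in either state (-1.44 and -1.11), and Zbtb46, a dendritic cell marker, differed by -0.02 in resting and was 2.88-fold higher (1.53) in restimulated cells. The list medians were -0.12 and -0.00093, and the part of these cells in the Ccl17 difference was not tested.

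Cxcl10 (IP-10) had log2 levels of -3.84 in resting control, -1.75 in restimulated control and -3.29 in restimulated SH-2251-treated cells, and its value of -6.75 in resting SH-2251-treated cells was not well above background. Control cells were the higher in each state, but in resting cells this direction was fixed, as only the control was well above background. With SH-2251 the Cxcl10 signal was at least 1.76-fold lower in resting and 2.92-fold lower (-1.55, technical SD 0.245) in restimulated cells, where 34.3% of the control signal was left. Restimulation went with a Cxcl10 signal 4.26-fold higher in control and at least 2.57-fold higher in SH-2251-treated cells. Cxcl10 and Ccl17 were dim, and with normexp fitted to spots of even background no Ccl17 or Cxcl10 difference with SH-2251 reached 2-fold.

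Ccl9 (MIP-1γ), a ligand of Ccr1 best known from myeloid cells, was the only compared ligand whose SH-2251 difference had opposite signs in the 2 states at the scaling used here. Under normexp on all spots Ccl9 was 0 and 0.05, and Ccl3 (1.01 and -1.02) and Ccl4 (0.18 and -0.53) had opposite signs instead. Its log2 level was -3.82 in resting control, -3.12 in restimulated control and -2.43 in restimulated SH-2251-treated cells, and its value of -6.21 in resting SH-2251-treated cells was not well above background. SH-2251-treated cells were at least 1.78-fold lower than control when resting and 1.62-fold higher (0.69, technical SD 0.243) when restimulated. Restimulation went with a signal 1.62-fold higher in the control culture and at least 4.66-fold higher in the treated one. Xcl1 (lymphotactin), the ligand of Xcr1 on cross-presenting dendritic cells, had log2 values of -6.76, -6.85, -5.80 and -4.83 in the order resting control, resting SH-2251, restimulated control and restimulated SH-2251, none of them well above background.

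Between SH-2251-treated and control cells, 6 ligands could be compared in resting cells, and all 6 were lower with SH-2251. For Ccl9, Ccl17 and Cxcl10 this direction was fixed by the filter. They were well above background in the control only, so their bounds could not lie above 0. Ccl3, Ccl4 and Ccl5 were measured on both arrays and could have gone either way. Under normexp on all spots Ccl5 alone was lower, Ccl3 and Ccl4 were above 0 and the 3 bounds were 0, whereas all 6 were below 0 when the fit left out spots of uneven background. Of these, Ccl5 and Ccl17 (2 of 6) were at least 2-fold lower and 0 of 6 at least 2-fold higher, beside 2.90% of all 12684 genes compared that were that much lower and 2.22% that were that much higher. The median log2 difference was -0.82 over the 6 ligands, of which 3 are bounds, and -0.055 over all genes. In restimulated cells 7 ligands could be compared, 6 lower and 1 higher. Ccl3, Ccl5, Ccl17 and Cxcl10 (4 of 7) were at least 2-fold lower and 0 of 7 at least 2-fold higher, beside 2.78% lower and 2.65% higher among 12623 genes. The median was -1.04 over the 7 ligands and -0.063 over all genes. Under normexp on all spots the share of all genes moved in resting cells, to 1.28% lower and 5.53% higher.

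**Figure D2:**
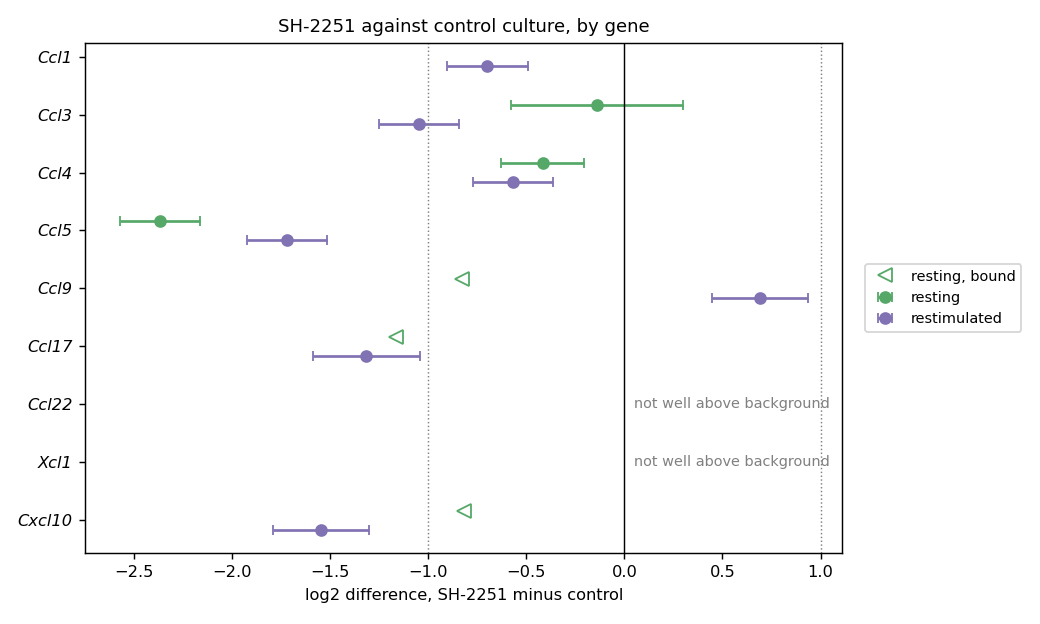
Log2 difference, SH-2251 minus control, of each ligand in resting and restimulated cells (1 array per condition). Points carry the technical SD, triangles are bounds for ligands measured on only 1 array of the pair, and the dotted lines mark 2-fold. Most values lie below 0, with Ccl5 at -2.37 and -1.72, and Ccl9 in restimulated cells lies above 0 at 0.69. The triangles of resting cells could not lie above 0.

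Between restimulated and resting cells, 7 ligands could be compared in each culture, and all were higher after restimulation. For some this direction was fixed, as they were well above background on the restimulated array only and their bounds could not lie below 0. These are Ccl1 in either culture and Ccl9, Ccl17 and Cxcl10 in SH-2251-treated cells. In control cells 5 of 7 (Ccl1, Ccl3, Ccl4, Ccl5 and Cxcl10) were at least 2-fold higher and 0 of 7 at least 2-fold lower, beside 7.20% higher and 7.34% lower among 12758 genes. In SH-2251-treated cells 6 of 7, Ccl9 included, were at least 2-fold higher and 0 of 7 lower, beside 7.09% higher and 6.98% lower among 12613 genes. Under either normexp fit 4 were at least 2-fold higher, since Ccl9 (0 or 0.97) and Cxcl10 (0 or 0.71) no longer were. Bounds included, the medians were 2.09 and 2.22, with -0.064 and -0.051 over all genes. These comparisons share arrays with those of SH-2251 against control.

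**Figure D3:**
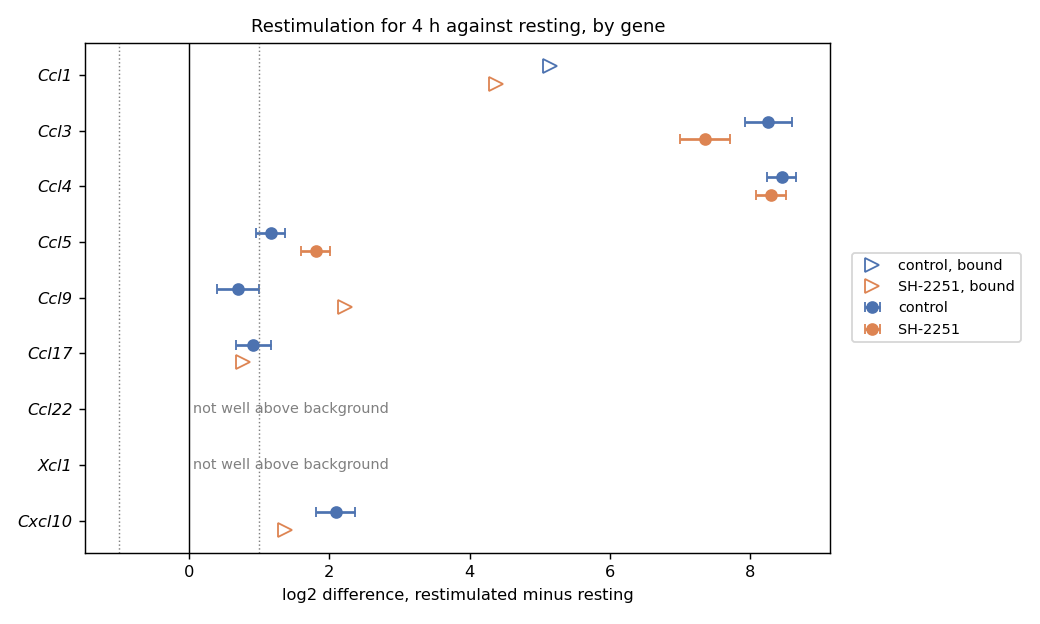
Log2 difference, restimulated minus resting, of each ligand, without and with SH-2251 (1 array per condition). Points carry the technical SD, triangles are bounds, which could only point to higher signals, and the dotted lines mark 2-fold. Ccl3 and Ccl4 lie between 7.36 and 8.46 in either culture, Ccl1 has bounds of 5.15 and 4.38, and the remaining ligands lie between 0.70 and 2.22.

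The response to restimulation could be set between the cultures for the 3 ligands measured on all 4 arrays. The response of Ccl3 in SH-2251-treated cells minus that in control cells was -0.91 (log2 scale, technical SD 0.485), and 0.642% of the 11518 genes measured on all 4 arrays had a lower value. For Ccl4 the value was -0.15, within its technical SD of 0.295. For Ccl5 it was 0.65 (technical SD 0.289), above 97.6% of genes, so the gap between the cultures was narrower after restimulation than before it. The median over all genes was 0.012. None of these differences between responses could be tested.

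Promoter sequence was read for ligands that were higher after restimulation and carried recognition letters of activation-induced or interferon-activated factors. RefSeq promoters of assembly GRCm38.p6 were held for 7 of the 9 ligands, and Ccl4 and Ccl5 had none in the table. In the 250 bases before the start, on either strand, AP-1 (TGANTCA), the NFAT core (GGAAAA), the GAS element (TTCNNNGAA), the NF-κB consensus and the interferon-stimulated response element were searched. Shown are Ccl1 and Ccl3, the pair with NFAT core letters, and Cxcl10, the ligand with the most matches. Each is read 5′ to 3′ on the strand of its gene, which is the minus strand for all 3, with matches in capitals (TTTTCC is the NFAT core on the other strand).
Ccl1 at chr11:82179813-82180062: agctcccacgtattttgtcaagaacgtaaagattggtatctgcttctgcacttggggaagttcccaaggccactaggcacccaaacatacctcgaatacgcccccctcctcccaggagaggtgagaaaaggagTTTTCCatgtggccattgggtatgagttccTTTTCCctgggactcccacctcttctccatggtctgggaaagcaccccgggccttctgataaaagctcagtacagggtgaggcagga
Ccl3 at chr11:83649379-83649628: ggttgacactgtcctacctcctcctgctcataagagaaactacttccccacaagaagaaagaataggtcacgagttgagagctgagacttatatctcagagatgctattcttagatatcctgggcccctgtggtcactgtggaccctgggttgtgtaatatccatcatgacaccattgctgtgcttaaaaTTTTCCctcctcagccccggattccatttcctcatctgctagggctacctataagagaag
Cxcl10 at chr5:92348890-92349139: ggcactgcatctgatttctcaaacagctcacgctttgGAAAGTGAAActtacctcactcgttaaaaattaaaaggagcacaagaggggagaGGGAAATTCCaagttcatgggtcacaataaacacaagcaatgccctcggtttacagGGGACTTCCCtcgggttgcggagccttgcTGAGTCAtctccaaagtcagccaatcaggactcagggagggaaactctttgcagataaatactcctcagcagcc
The Ccl1 promoter held the NFAT core at 117 to 112 and at 87 to 82 bases before the start, and the Ccl3 promoter at 60 to 55 bases. In the Cxcl10 promoter, the capitals are, from left to right, the response element (213 to 204 bases before the start), NF-κB consensus matches (159 to 150 and 103 to 94 bases) and AP-1 (74 to 68 bases). Ccl9 held AP-1 and NF-κB matches and Ccl17 a GAS match, and none of these letters were found in these windows of Ccl22 and Xcl1. The NFAT core was in 2 of 7 ligand promoters and in 20.4% of all 32851 promoters in the table, AP-1 in 2 of 7 and 6.75%, the NF-κB consensus in 2 of 7 and 3.90%, GAS in 1 of 7 and 7.02%, and the response element in 1 of 7 and 2.98%. A match describes letters and not a site in use.

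The receptors of these ligands were measured on the same arrays, and 7 of 9 were well above background on at least 1 array, Ccr1 and Ackr1 being the exceptions. Ackr2 was not well above background in restimulated control cells. Cxcr3, the receptor of Cxcl10, gave -0.80 for resting and -1.04 for restimulated cells. Ccr3, a receptor of Ccl5 and the eotaxins, differed by -1.63 in restimulated cells.

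Ccr8, the receptor of Ccl1, had log2 levels of 0.12, 0.96, 2.05 and 2.59 in the order resting control, resting SH-2251, restimulated control and restimulated SH-2251, and so was higher with SH-2251 in either state while Ccl1 was lower with SH-2251 in restimulated cells. Ccr4, the receptor of Ccl17 and Ccl22, lay at 1.88, 1.82, 1.499 and 1.69 in the same order, and its SH-2251 differences of -0.07 and 0.19 were within their technical SD. Of the 7 receptors compared, 2 were at least 2-fold lower with SH-2251 in restimulated cells (Ccr3 and Cxcr3), and 0 were at least 2-fold higher in either state. The medians were -0.24 in resting and -0.37 in restimulated cells. With restimulation, Ccr3 and Ccr8 were at least 2-fold higher and the scavenging receptor Ackr2 at least 2-fold lower in either culture.

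Other chemokine ligands were mostly below background, as 19 of 27 were not well above background in any condition. Of 6 compared in resting cells, 0 differed 2-fold with SH-2251 in either direction. Of 7 compared in restimulated cells, 1 was lower and 1 higher by 2-fold or more. The lower was Cxcl3, which draws in neutrophils, with levels of 0.70 in the control and -1.99 in the treated cells, which differ by -2.69 (technical SD 0.209) or 6.46-fold. The higher was Ccl24 (eotaxin-2), a ligand of Ccr3, at -3.06 with SH-2251 and not well above background in the control, so at least 3.02-fold higher. Cxcl3 and its relative Cxcl2 were not well above background in resting cells and were at least 43.1-fold and at least 4.96-fold higher with restimulation in control cells, and at least 6.34-fold and 2.85-fold higher in SH-2251-treated cells.

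Genes of T cell activation were mostly higher after restimulation in either culture: 21 of 24 were at least 2-fold higher in control cells, with a median of 2.90, and 23 of 24 in SH-2251-treated cells, with a median of 2.76. Csf2, the growth factor GM-CSF, was 53.1-fold and 46.5-fold higher, and the nuclear receptor Nr4a1 70.2-fold and 71.8-fold higher. Between the restimulated cultures 2 of 24 were at least 2-fold lower with SH-2251, Ifng (-1.64) and Il2 (-1.52), and 1 at least 2-fold higher, Lta (1.05), around a median of 0.08. In resting cells Irf8 (-1.46), Il13 (-1.32) and Egr2 (-1.19) were at least 2-fold lower among 20 compared, 0 were at least 2-fold higher, and the median was 0.04. Against these medians near 0, the ligands had medians of -0.82 and -1.04 in resting and restimulated cells. The resting ligand median lies between the bounds of Ccl9 and Cxcl10, which could not be above 0. The 20 activation genes compared there were all measured on both arrays, so the resting contrast is in part set by the filter. The restimulated ligand values were all measured on both arrays. By median, markers of T helper subsets lay nearer to the ligands, at -0.68 and -0.56 over 6 Th1 markers and -0.67 and -0.40 over 8 Th2 markers. The Th2 markers were divided. Il5, Il10, Il13 and Maf were at least 2-fold lower in resting cells, and only Il5 and Maf in restimulated cells. Gata3 (-0.17), Il4 (-0.10) and Ccr4 (-0.07) were within their technical SD in resting cells, and Ccr8 was higher there (0.85).

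Interferon-stimulated genes, the group to which Cxcl10 belongs, were divided. In resting cells 6 of 19 compared were at least 2-fold lower with SH-2251 and 0 higher, namely Rsad2 (-2.14), Usp18 (-2.11), Oasl1 (at least 4.29-fold), Isg15 (-1.98), Oas1a (-1.94) and Ifit1 (at least 2.03-fold), with a median of -0.25 over the list. In restimulated cells 6 of 19 were at least 2-fold lower and 0 higher, with a median of -0.16. Usp18 (-2.54) and Oas1a (-1.97) were measured on both arrays. Oasl1 (at least 8.98-fold), Rsad2 (3.18-fold), Ifit1 (2.77-fold) and Ifit3 (2.14-fold) were bounds. These, and the resting bounds of Oasl1 and Ifit1, were well above background in the control only and could not lie above 0. Isg15 differed by 0.09 there. Irf1, a transcription factor induced by interferon, differed by -0.22 and 0.43. The part of interferon signalling in the Cxcl10 difference was not tested.

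**Figure D4:**
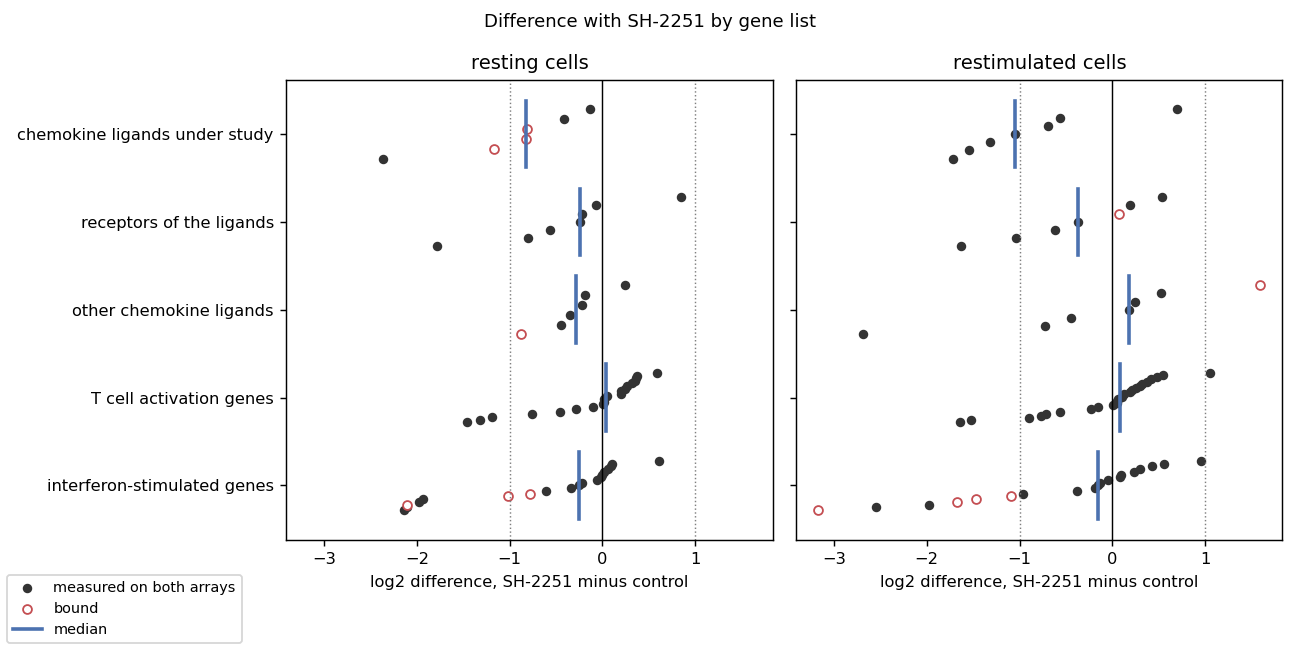
Log2 difference, SH-2251 minus control, of each compared gene in the list of ligands studied here and in 4 related lists, in resting (left) and restimulated cells (right). Filled points were measured on both arrays, open points are bounds, blue lines are list medians and dotted lines mark 2-fold. The ligand medians of -0.82 and -1.04 lie below those of the 4 lists plotted beside them, which run from -0.37 to 0.18. The resting ligand median lies between bounds that could not have been positive.

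Among the 11518 genes measured on all 4 arrays, the pattern nearest to that of Ccl3 after centring each gene on its own mean was that of Ccl4 (root mean square distance 0.344 on the log2 scale over 4 arrays), followed by the matrix metalloproteinase gene Mmp10 (0.514). Rgs16, a regulator of G protein signalling, was nearest to Ccl4 (0.227), ahead of Ccl3. H1f8 (0.196) and the phospholipase gene Plcd4 (0.239) were nearest to Ccl5, with SH-2251 differences of -2.04 and -1.99 in resting cells. These values describe the 4 arrays only. In the RefSeq order of protein-coding genes, Ccl5, Ccl9, Ccl6, Ccl3 and Ccl4 follow each other on chromosome 11, and the 4 of them under study differed in pattern: Ccl3 and Ccl4 were 308-fold and 351-fold higher with restimulation in control cells, Ccl5 and Ccl9 2.23-fold and 1.62-fold higher, and Ccl6 was not well above background in any condition. On chromosome 8, Cx3cl1 lies between Ccl22 and Ccl17, and of these only Ccl17 was measured. On chromosome 5, Cxcl9, a further interferon-induced ligand of Cxcr3, lies near Cxcl10 and was not well above background in any condition.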

How the data were processed

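RNA (500 ng per sample) was labelled with Cy3 and hybridised to whole mouse genome arrays, 1 for each of the 4 conditions, which were taken from the labels. The authors deposited scanner intensities, which Feature Extraction (10.7 per the labels, 10.7.3.1 per the file headers) had corrected for background. The authors also deposited processed log2 values made with the Subio Platform. These differ from the log2 intensities by a constant on each array, within 0.01 for 99.6% to 99.7% of probes.

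Control and outlier spots (77 to 106 per array) were left out, spots of a probe were averaged, and the 75th percentile of each array was subtracted from the log2 intensity. It corresponds to 499 to 614 intensity units. Of 41174 probes, 27198 were named through RefSeq accessions, giving 18539 genes, and the brightest probe stood for a gene. The arrays were designed on mm9, so gene coordinates are given only for the RefSeq promoters (GRCm38.p6). A difference of at least 2-fold was counted, and a bound counted when it reached 2-fold. Bounds that crossed 0 were written as 0. The technical SD combines the error estimates of both arrays. Signal over background and the number of arrays limit the precision.

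All 9 ligands are given. The plan was to name, from other lists, genes at least 2-fold apart by size, at most 5 per list and direction, and the 2 nearest patterns per ligand measured on all 4 arrays. It was not followed throughout. The text names 6 interferon-stimulated genes lower in each state. Of activation genes higher with restimulation it names Csf2 and Nr4a1 but not the largest, Il3. The receptors, and genes named with smaller differences, were chosen after their values were seen. Some members of these lists are not reported here. The ligands and lists were chosen with earlier results of these data known. Alternatives were other scalings (median, quantile, the authors' values), normexp with an offset of 50 on median spot signals (with and without spots of uneven background), other filters and probe rules, and thresholds of 1.5-fold and 3-fold. The calculation was tested on simulated data. Python 3.11.15, numpy 2.4.6, pandas 2.3.3, matplotlib 3.10.9, R 4.3.3 and limma 3.58.1 were used.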

Additional observations from a re-analysis of the deposited data

Results flagged for a closer look

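Ccl9 was lower with SH-2251 in resting cells (a bound of -0.83 on the log2 scale) and higher in restimulated cells (0.69), so the 2 states went in opposite directions. The resting bound could not have come out higher with SH-2251, as Ccl9 was well above background in the resting control only. Whether the states differ was not tested, and the signal was dim on all 4 arrays. Under normexp without spots of uneven background the restimulated value was 0.05.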

How the results depend on the processing

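No paired analysis was possible because each condition has 1 array. Over 27 differences of single ligands and 9 alternatives, 187 values lay within the technical SD of the reported one, 48 moved further and 0 reversed a 2-fold call. Of differences reported as under 2-fold, normexp on all spots turned the sign of Ccl3 (1.01) and Ccl4 (0.18) in resting cells. Median centring, quantile normalization, the authors' values and outlier spots moved none. The mean of all probes could not move a ligand, since each has 1 probe. Requiring both arrays above background only left differences out and changed no value. The authors' values are the same intensities less a constant per array, and outlier spots barely changed the scaling. Many of the 187 values thus stayed near the reported ones by construction and say little about robustness. Normexp accounted for 42 of the moves, 23 in the fit on all spots and 19 without spots of uneven background. Its offset draws dim probes together, but not every move was towards 0. Resting Ccl3 was 1.01 in the fit on all spots and -0.09 without spots of uneven background, at the same offset.

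With SH-2251 in resting cells, the 2 ligands at least 2-fold lower became 1 under either normexp fit (Ccl5), 1 where both arrays had to be above background, 5 with neither filter nor bound, 4 at 1.5-fold and 1 at 3-fold, and normexp on all spots gave 1 that was higher (Ccl3). In restimulated cells the 4 lower became 3 under quantile normalization (Ccl3 at -0.99), 2 under either normexp fit, 5 at 1.5-fold and 1 at 3-fold, and 1 was higher at 1.5-fold. With restimulation of SH-2251-treated cells, the 6 higher became 3 where both arrays had to be above background and 4 under either normexp fit. Normexp on all spots moved the difference between the responses to -2.03 for Ccl3 and to -0.71 for Ccl4. Under every alternative run, Ccl5 in resting cells kept to the range of -2.37 to -2.10, and in restimulated cells to -1.72 to -1.66. Over all genes, the percentages lower and higher by 2-fold became 1.28 and 5.53 in resting and 1.25 and 1.18 in restimulated cells under normexp on all spots.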

Other observations

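Ccl11 (eotaxin-1), a ligand of Ccr3, was well above background only in resting control cells, at a log2 level of -3.77, and was at least 1.84-fold lower in resting SH-2251-treated cells. Ccl19, a ligand of Ccr7, was measured on all 4 arrays between -0.21 and 0.30, and its SH-2251 differences were -0.22 in resting and 0.24 in restimulated cells. Of 8 B cell markers, 7 were well above background on each array, and Ms4a1 (1.21) and Fcer2a (1.01) exceeded control 2-fold in restimulated SH-2251-treated cells. Of 8 granulocyte and mast cell markers, 1 to 3 were well above background on an array.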
